A study of Mus musculus with 7 samples.

Results

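The genes described here encode the surface proteins through which a macrophage restrains or stimulates T cells. They are Cd274, Pdcd1lg2, Vsir, Havcr2, Pvr, Nectin2, Cd80, Cd86, Cd40 and Tnfsf9, and they were taken as a named list of 10 genes out of the 55385 gene IDs in the count files. All 10 were among the 15448 genes with enough reads to be tested. Messenger RNA was sequenced from macrophages sorted by flow cytometry out of gliomas that QPP7 cells, injected at 100000 per mouse, had formed in the brains of C57BL/6 mice. The compared groups were macrophages from tumours whose cells carried a hairpin against Chi3l1 (shChi3l1, 3 libraries) and from tumours whose cells carried shSC in its place (4 libraries), taken here as the control. The strain, the QPP7 line and the orthotopic site were common to both groups. Because the injected tumour cells carried the hairpin, Chi3l1 was targeted around the macrophages rather than inside them. The sources used here do not give the mice's age, the sorting antibodies or whether a library stands for 1 mouse. The p-values therefore describe variation among libraries, which can include technical variation.

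A T cell that recognises antigen on a macrophage also reads a second set of signals from ligands of the B7, nectin and TNF families. CD80 and CD86 activate T cells through CD28 and are captured by the inhibitory receptor CTLA-4, whereas PD-L1 and PD-L2 restrain T cells through PD-1. Interferon-gamma is a strong inducer of PD-L1 in macrophages, and engagement of CD40 by T cells raises CD80 and CD86. In gliomas, macrophages and microglia are abundant, and their ligands are studied in relation to immune suppression.

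The genes of the PD-1 ligands, Cd274 and Pdcd1lg2, lie side by side on mouse chromosome 19, 22.8 kb apart, yet their order by level differed between libraries. Their upstream sequences are shown as a description, and no link between sequence and level was tested. Each is the 250 bases before the RefSeq start in GRCm38.p6, the build that mm10 names, on the plus strand, at chr19:29367188-29367437 for Cd274 and chr19:29410669-29410918 for Pdcd1lg2. Capitals mark a match to the kB consensus, the binding motif of NF-kB.
Cd274: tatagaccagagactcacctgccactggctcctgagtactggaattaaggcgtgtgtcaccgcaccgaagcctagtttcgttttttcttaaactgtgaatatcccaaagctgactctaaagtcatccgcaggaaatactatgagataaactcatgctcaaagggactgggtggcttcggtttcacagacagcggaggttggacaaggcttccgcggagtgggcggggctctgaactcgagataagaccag
Pdcd1lg2: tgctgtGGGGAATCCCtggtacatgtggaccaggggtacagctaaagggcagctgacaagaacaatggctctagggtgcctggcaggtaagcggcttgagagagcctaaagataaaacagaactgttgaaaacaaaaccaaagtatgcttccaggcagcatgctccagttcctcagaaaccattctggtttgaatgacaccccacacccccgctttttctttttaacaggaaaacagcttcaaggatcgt
The match in Pdcd1lg2 began 244 bases before the start. Of the 10 genes, 6 (Cd274, Pdcd1lg2, Vsir, Havcr2, Nectin2 and Cd80) matched a RefSeq upstream sequence, and Pdcd1lg2 alone among them held the kB consensus, which 3.90% of all 32851 such windows held. Neither the interferon-stimulated response element core (2.98% of windows) nor TATAAA (12.4%) was found in any of the 6, with both strands searched. The Cd274 window held 11 CpG dinucleotides and the Pdcd1lg2 window 3, against a median of 6 over all windows.

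The libraries held 23174989 to 36502664 reads assigned to genes in shChi3l1 and 19169129 to 32590781 in shSC. Chi3l1 itself, listed under the symbol Chil1, had 7 to 31 reads in shChi3l1 libraries and 18 to 28 in shSC libraries, too few to check the knockdown, which was made in other cells. Macrophage markers were abundant throughout, with a summed level over 14 genes of 43030 to 62290 CPM (counts scaled to a common library total) in shChi3l1 libraries and 31790 to 43310 CPM in shSC libraries, and all 14 had a fold change above 0, and 9 to 13 did when any 1 library was left out. The most abundant was Lyz2, the lysozyme gene, which averaged 26690 CPM in shChi3l1 and 14730 CPM in shSC libraries. All 10 microglia markers were also above 0, at a median of 1.81 on the log2 scale, and Slc2a5 had the smallest unadjusted p, at 1.92, 14.9 and 83.9 CPM in shChi3l1 replicates 1 to 3 against 0.430 to 2.77 CPM in shSC libraries. Tumour and glial markers were above 0 in 3 and below in 12 of the 15 tested. None of any marker list passed. Summed over 12 dendritic-cell markers the level was 962 to 1398 CPM in shChi3l1 and 424 to 1772 CPM in shSC libraries, led by the chemokine receptor gene Ccr7, with 6 of 12 above 0. Over 13 T- and NK-cell markers, of which 5 were above 0, it was 159 to 1461 CPM against 158 to 1187 CPM. Over 10 B-cell markers it was 154 to 1827 CPM against 81.9 to 509.8 CPM, with all 8 tested above 0. Neutrophil markers (2 of 6 tested above 0) summed to 88.5 to 148 CPM against 45.9 to 128 CPM, and endothelial markers (6 of 10) to 20.1 to 106 CPM against 23.3 to 74.9 CPM. The neutrophil sum was mostly Csf3r, which averaged 98.2 CPM in shChi3l1 and 49.7 CPM in shSC libraries, of sums averaging 127.9 and 74.7 CPM. Of the 10 neutrophil markers 3 (Ly6g, Cxcr2 and Ngp) were under 1 CPM in every library and 3 (S100a8, Csf3r and Mmp8) at 1 CPM or more in every library. Of the 13 endothelial and pericyte markers 3 (Cdh5, Col1a1 and Dcn) were under 1 CPM throughout and 4 (Pecam1, Kdr, Flt1 and Cldn5) at 1 CPM or more. Libraries stood apart in 2 ways: shChi3l1 3 was highest in B-cell and microglia markers (1827 and 4155 CPM), and shSC 4 was highest in tumour and glial markers, at 374.7 CPM against 49.1 to 122.8 CPM in the other 6 libraries. Without shChi3l1 3 the microglia markers had a median of 0.49 with 9 of 10 above 0, and the B-cell markers had 0 of 9 above 0. Without shSC 4 the tumour and glial markers had 10 of 15 above 0.

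Per exonic length the ligands fell into an abundant set and a scarce set. In TPM, the length-scaled abundance that sums to the same total in every library, averaged over the 7 libraries, Tnfsf9 was at 405.5, Cd40 at 204.0, Cd86 at 202.5, Cd274 at 163, Vsir at 106, Havcr2 at 75.9 and Pdcd1lg2 at 71.5. Pvr, Cd80 and Nectin2 were lower, at 12.98, 12.5 and 9.04 TPM. The step between these sets was the only 1 between neighbours in the order that held in every library, since Pdcd1lg2 exceeded Pvr in 7 of 7. Neighbours within the sets changed places: Tnfsf9 exceeded Cd40 in 4 libraries, Cd40 exceeded Cd86 in 3, Cd86 exceeded Cd274 in 5, Cd274 exceeded Vsir in 6, Vsir exceeded Havcr2 in 4 and Havcr2 exceeded Pdcd1lg2 in 5. In the scarce set Pvr exceeded Cd80 in 3 libraries and Cd80 exceeded Nectin2 in 5. The mean of Tnfsf9 was carried by shSC 4, where it reached 1171 TPM, and its range began at 126.5 TPM. Of the summed TPM of the 10 genes, Tnfsf9 made up 24.7% ± 6.77 in the 3 shChi3l1 libraries and 31.6% ± 22.8 in the 4 shSC libraries (SD), and Cd86 18.2% ± 1.49 against 15.8% ± 5.89. By library the Tnfsf9 share was 27.4%, 29.7% and 17.02% in shChi3l1 replicates 1 to 3 and 41.5%, 12.1%, 13.8% and 59.2% in shSC replicates 1 to 4. Without shSC 4 the shSC mean was 22.5%, so the direction of the difference turned, and the Cd86 share was 17.8%. The summed level itself was 1167 ± 279.0 TPM in shChi3l1 and 1335 ± 454.8 TPM in shSC libraries (SD, n = 3 and 4). It was 1979 TPM in shSC 4, and the mean of the other 3 shSC libraries was 1120 ± 183.0 TPM, so this direction turned as well.

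**Figure D1:**
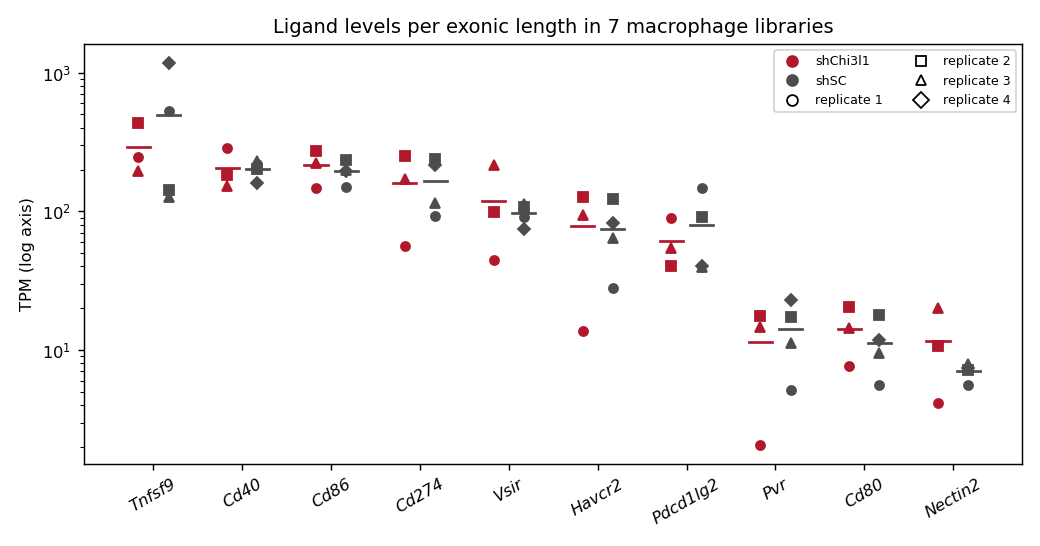
Level of each gene in TPM on a log axis, with 1 point per library (shape gives the replicate number), a bar at the group mean, and genes ordered by their mean over the 7 libraries. Tnfsf9 spans 126.5 to 1171 TPM, and Pvr, Cd80 and Nectin2 lie below the other 7 genes in their means.

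No ligand passed the test for a difference between the hairpins. At an adjusted p of 0.05 in edgeR's quasi-likelihood test, 0 of the 10 passed, and 0 of all 15448 genes did (0%). The 10 had the same Benjamini-Hochberg adjusted p of 0.9998, and at an unadjusted p under 0.05 there were 0 of 10 members and 229 of all genes. The DESeq2 Wald test called 1 gene in all and none of the 10, and voom with sample weights called 0. Fold changes were above 0 in 7 of the 10, with a median log2 fold change of 0.28, beside 57.6% of all tested genes and a median of 0.07. The largest were those of Nectin2, Cd80, Vsir and Cd86. In bulk RNA, fewer cells of a type and less RNA per cell cannot be told apart, and this holds for every value below. Levels from here on are CPM on TMM-scaled library totals, and fold changes are of shChi3l1 over shSC.

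Cd86 (ENSMUSG00000022901.13, mm10 chromosome 16, 36603869 to 36666081, minus strand), a CD28 and CTLA-4 ligand, was the only member without group overlap in CPM. It had 386.5, 465 and 374 CPM in shChi3l1 replicates 1, 2 and 3, against 314.5, 351, 338.5 and 277 CPM in shSC replicates 1 to 4. The lowest shChi3l1 library thus lay above the highest shSC library in CPM. In TPM the groups overlapped. Replicates 1 to 3 of shChi3l1 were at 147.3, 271.8 and 223.0 TPM, and shSC replicates 1 to 4 at 148.8, 232.8, 199.7 and 193.8 TPM. Among all tested genes, 1.24% were without overlap in this direction and 1.26% in the other. Cd86 averaged 409 ± 49.3 CPM in the 3 shChi3l1 libraries and 320.3 ± 32.6 CPM in the 4 shSC libraries (SD). The log2 fold change was 0.35 (SE 0.30), and this did not pass (edgeR unadjusted p = 0.277). The SD of its log2 CPM was 0.17 in shChi3l1 and 0.15 in shSC libraries. The edgeR SE also draws on the variation of other genes. Cd86 was also the steadiest member: its highest library was 1.68-fold above its lowest, and only 7.90% of the 696 tested genes within 2-fold of its level had a narrower range. The summed level of macrophage markers, given above, averaged 53440 ± 9724 CPM in the 3 shChi3l1 libraries and 36550 ± 4872 CPM in the 4 shSC libraries (SD). Of these sums Lyz2 alone made up 26690 and 14730 CPM, and the median log2 fold change of the 14 markers was 0.25. The part of the macrophage markers in the Cd86 values was not tested.

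Cd80 (ENSMUSG00000075122.5, chromosome 16, 38455561 to 38496335, plus strand), the other CD28 and CTLA-4 ligand, was scarce. Its values were 20.3, 35.6 and 24.4 CPM in shChi3l1 libraries 1 to 3, against 11.95, 27.5, 16.4 and 17.2 CPM in shSC libraries 1 to 4. Only shSC 2 reached into the shChi3l1 range. The averages of 26.8 ± 7.91 CPM (SD, n = 3) and 18.25 ± 6.56 CPM (SD, n = 4) gave a log2 fold change of 0.55 (SE 0.38). Only 2 of 10 members, Cd80 and Cd86, had more in shChi3l1 in all of the 3 numbered pairs, by 0.76, 0.37 and 0.58 on the log2 scale for Cd80 and by 0.30, 0.41 and 0.15 for Cd86, where 12.5% of all tested genes had this. In the opposite direction it was 0 of 10 members and 10.7% of genes. These pairs were compared in CPM. In TPM, Cd86 in replicate 1 was at 147.3 in shChi3l1 and 148.8 in shSC. Cd86 transcripts outnumbered those of Cd80 per length 19.2-, 13.2- and 15.5-fold in shChi3l1 and 26.6-, 12.9-, 20.9- and 16.3-fold in shSC libraries. The ratio of Cd86 to Cd80 differed by -0.23 on the log2 scale (exact two-sided permutation p = 0.457, and 0.609 after Benjamini-Hochberg adjustment over 4 such tests).

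**Figure D2:**
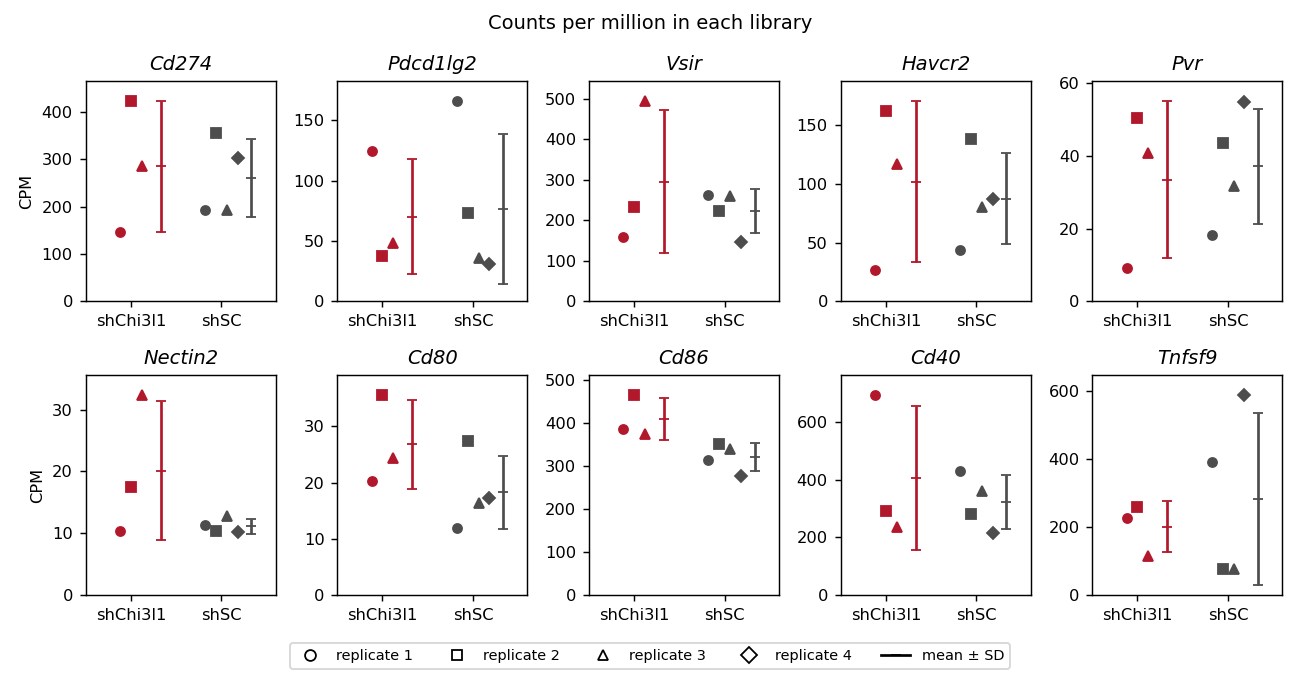
CPM of each gene in every library, by hairpin, with axes from 0, 1 point per library (shape gives the replicate number) and the group mean ± SD beside the points. The groups of Cd86 do not overlap, at 374 to 465 CPM in shChi3l1 and 277 to 351 CPM in shSC libraries, while those of the other 9 genes do.

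Cd40 encodes the receptor by which T cells license macrophages and dendritic cells. It measured 694, 290.2 and 237 CPM in shChi3l1 replicates 1 to 3 and 429.6, 283, 361.0 and 214.0 CPM in shSC replicates 1 to 4. The library shChi3l1 1 stood far above the rest, and the remaining shChi3l1 libraries lay inside the shSC range. The log2 fold change was 0.34 (SE 0.46), and without shChi3l1 1 it was -0.33. Within same-numbered pairs the log2 difference was 0.69, 0.04 and -0.61, so the pairs did not share a direction. Cd40 lies on chromosome 2 (ENSMUSG00000017652.16, 165055627 to 165072948, plus strand), as a gene of 3406 exonic bases with no exon shared with another gene.

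The PD-1 ligand genes, Cd274 (ENSMUSG00000016496.7, chromosome 19, 29367455 to 29388095) and Pdcd1lg2 (ENSMUSG00000016498.10, 29410919 to 29471161), both on the plus strand, gave no common direction. Cd274, which encodes PD-L1, had 147, 424 and 286 CPM in shChi3l1 libraries 1 to 3, against 192, 356.5, 193 and 303 CPM in shSC libraries 1 to 4. Its lowest and its highest library were both shChi3l1, and the log2 fold change of 0.13 (SE 0.44) turned to -0.28 without shChi3l1 2, to -0.03 without shSC 1 and to -0.05 without shSC 3. Pdcd1lg2, which encodes PD-L2, had 125, 37.2 and 48.6 CPM in shChi3l1 and 166, 73.3, 36.0 and 30.7 CPM in shSC libraries. Replicate 1 of each hairpin was the highest of its group. The log2 fold change of -0.12 (SE 0.66) became 0.17 without shChi3l1 2, 0.07 without shChi3l1 3 and 0.56 without shSC 1. An antisense gene shares 14.1% of the exon bases of Cd274, and the library kit does not mark strand, so their reads cannot be told apart there.

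Replicate 1 of both hairpins carried more Pdcd1lg2 than Cd274 per length, and every other library carried less. The ratio of Pdcd1lg2 to Cd274 was 1.57, 0.162 and 0.315 in shChi3l1 libraries and 1.59, 0.380, 0.344 and 0.187 in shSC libraries. Between hairpins the mean log2 ratio was -1.21 ± 1.68 (SD, n = 3) against -1.17 ± 1.31 (SD, n = 4), a difference of -0.04 (exact two-sided permutation p = 0.743, adjusted p = 0.743). Its sign turned without shChi3l1 2 (0.66), shChi3l1 3 (0.18) or shSC 1 (0.57). Ribosomal protein genes, which are short, took 6.17% of reads in shChi3l1 1 and 5.71% in shSC 1, against 1.97% to 4.56% in the other 5 libraries. Genes over 5000 exonic bases took 12.6% and 14.8% in these libraries, against 16.8% to 20.7% in the others. The part of this length difference in the ratio was not tested.

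Vsir and Havcr2 encode VISTA and TIM-3, inhibitory immunoglobulin-family proteins of myeloid cells. They lie on chromosomes 10 (Vsir, ENSMUSG00000020101.14, 60346851 to 60372684) and 11 (Havcr2, ENSMUSG00000020399.14, 46454935 to 46481255), on the plus strand. TIM-3 is itself a receptor, also carried by exhausted T cells. Vsir had 159, 233 and 494 CPM in shChi3l1 replicates 1 to 3, against 263, 223.5, 260.1 and 147 CPM in shSC replicates 1 to 4. The value of shChi3l1 3 was well above all others, and the log2 fold change of 0.40 (SE 0.44) was -0.19 without that library. In shChi3l1 3 the microglia markers were also highest, at 4155 CPM against 981 to 2098 CPM elsewhere, and their part in the Vsir value was not tested. Havcr2 had 26.8, 162 and 117 CPM in shChi3l1 and 44.1, 138, 80.6 and 87.0 CPM in shSC libraries. It was lowest in replicate 1 of each hairpin and highest in replicate 2 of each. Its log2 fold change was 0.22 (SE 0.59), and without shChi3l1 2 it was -0.29.

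Pvr and Nectin2 encode CD155 and nectin-2, neighbours on chromosome 7 at 153 kb, which share the activating receptor CD226. Pvr (ENSMUSG00000040511.14) spans 19903578 to 19921160 and Nectin2 (ENSMUSG00000062300.14) 19716644 to 19750483, both on the minus strand. CD155 also binds the inhibitory receptors TIGIT and CD96. Nectin2 had 10.3, 17.5 and 32.4 CPM in shChi3l1 libraries 1 to 3, against 11.3, 10.4, 12.8 and 10.2 CPM in shSC libraries 1 to 4. The shSC values were close together, and shChi3l1 2 and shChi3l1 3 lay above all 4 of them, while shChi3l1 1 lay within their range. Nectin2 had the smallest unadjusted p of the 10 members (edgeR unadjusted p = 0.0697), with 20.1 ± 11.25 CPM (SD, n = 3) against 11.2 ± 1.21 CPM (SD, n = 4) and a log2 fold change of 0.85 (SE 0.41). The microglia markers summed to 1190, 2098 and 4155 CPM in shChi3l1 libraries 1 to 3, against 981 to 1683 CPM in shSC libraries. Their part in the Nectin2 values was not tested. An antisense gene shares 3.86% of its exon bases. Without shChi3l1 3 the log2 fold change was 0.32, and without shChi3l1 3 and shSC 4 together it was 0.28. Without shChi3l1 1 it was 1.13 (edgeR unadjusted p = 0.0108, adjusted p = 0.7496).

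Pvr had 9.11, 50.4 and 40.9 CPM in shChi3l1 and 18.15, 43.6, 31.8 and 54.95 CPM in shSC libraries. It was lowest in replicate 1 of each hairpin, and highest in shSC 4, the library highest in tumour and glial markers. Its log2 fold change of -0.15 (SE 0.58) was 0.10 without shSC 4. The 214 reads behind the lowest value give a 95% Poisson interval of 186 to 245 reads, which covers counting error only and is small beside the spread between libraries. The ratio of Nectin2 to Pvr per length was 1.99, 0.609 and 1.39 in shChi3l1 against 1.09, 0.416, 0.708 and 0.326 in shSC libraries. It was higher in shChi3l1 in each same-numbered pair, by 0.86, 0.55 and 0.97 on the log2 scale. Nectin2 has 3494 exonic bases and Pvr 6122. The part of the length difference between libraries in this ratio was not tested. Over all libraries the mean log2 ratio was 0.25 ± 0.87 (SD, n = 3) against -0.81 ± 0.78 (SD, n = 4), a difference of 1.06 that was within the spread (exact two-sided permutation p = 0.171, adjusted p = 0.609). The smallest p that 3 libraries against 4 allow is 0.0571.

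**Figure D3:**
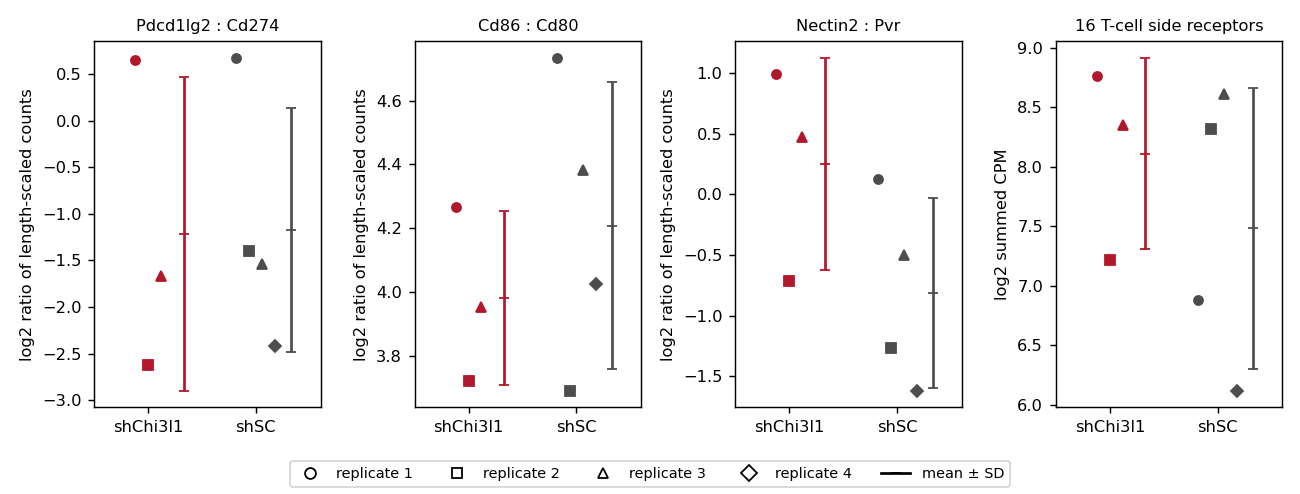
Log2 ratios between ligands that share a receptor (counts scaled by exonic length) and the log2 summed CPM of 16 T-cell side receptors, with 1 point per library (shape gives the replicate number) and the group mean ± SD. The Nectin2 to Pvr ratio averages 0.25 in shChi3l1 and -0.81 in shSC libraries, with overlap, and replicate 1 of each hairpin is highest for Pdcd1lg2 to Cd274.

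Tnfsf9 (ENSMUSG00000035678.8, chromosome 17, 57105325 to 57107757, plus strand), which encodes the ligand of the co-stimulatory receptor CD137, varied most. It had 227, 260.1 and 116 CPM in shChi3l1 replicates 1 to 3, against 391.0, 76.0, 75.6 and 589.9 CPM in shSC replicates 1 to 4. The shSC libraries thus held both the lowest and the highest values, and the shChi3l1 libraries lay between them. The log2 fold change was -0.49 (SE 0.74), 0.15 without shSC 4 and 0.54 with the replicate block, which leaves shSC 4 out. Between its lowest and highest library the level differed 7.80-fold, a wider range than in 96.1% of the 946 tested genes within 2-fold of its level. The library shSC 4 was also the highest in tumour and glial markers, and their part in the Tnfsf9 value was not tested. A long noncoding gene on the other strand shares 14.9% of the exon bases of Tnfsf9.

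Same-numbered libraries of the 2 hairpins gave unequal counts of higher members. In the replicate 1 pair 3 of 10 members were higher in shChi3l1 (Cd80, Cd86 and Cd40), with a median log2 difference of -0.40 over the members, beside 54.3% of all tested genes. In the replicate 2 pair it was 9 of 10 with a median of 0.24, beside 50.8% of genes, and in the replicate 3 pair 9 of 10 with a median of 0.55, beside 49.9%. The exception was Pdcd1lg2 in the replicate 2 pair and Cd40 in the replicate 3 pair. With the replicate block the number of members with a fold change above 0 was 8, and 0 passed.

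**Figure D4:**
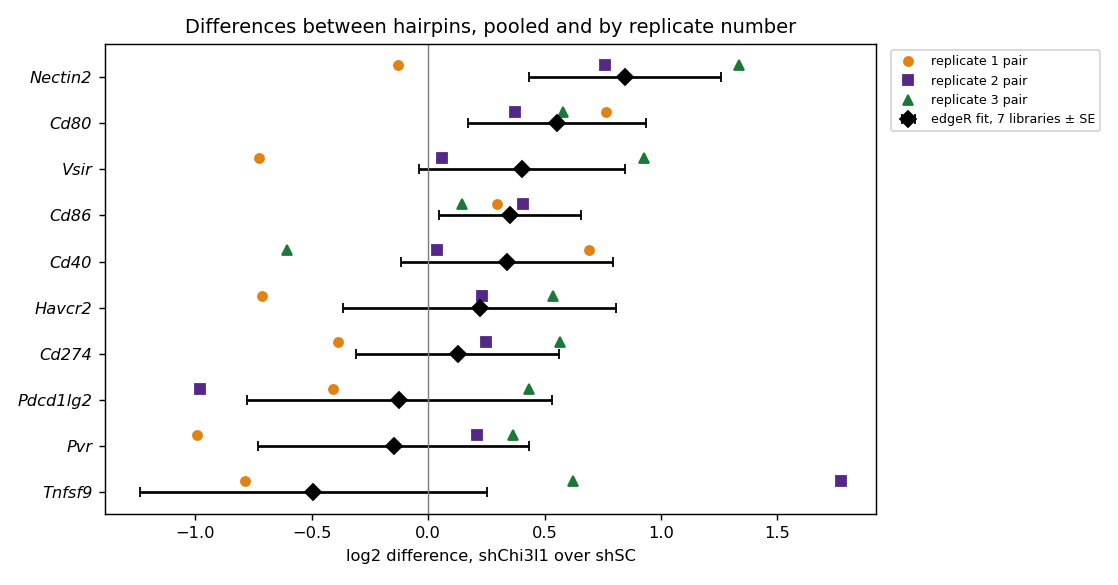
Log2 difference of shChi3l1 over shSC for each gene, as the edgeR fold change over 7 libraries with its SE (black) and as the difference of log2 CPM within each same-numbered pair (colours). Only Cd80 and Cd86 have all 3 pairs above 0, and Tnfsf9 has its pairs farthest apart.

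The members also differed in how they varied from library to library. Centred on each gene's mean log2 CPM, Pvr and Havcr2 were at -1.75 and -1.58 in shChi3l1 1 and at -0.76 and -0.87 in shSC 1, while Pdcd1lg2 was at 1.04 and 1.45 and Cd40 at 1.06 and 0.37 in the same libraries. The replicate 1 libraries of both hairpins were therefore low in Pvr and Havcr2 and high in Pdcd1lg2 and Cd40. These libraries also had the smallest shares of reads in genes over 5000 exonic bases, at 12.6% and 14.8%. The part of this difference in the pattern was not tested. In shChi3l1 2, 4 of the 10 members reached their highest level (Cd274, Havcr2, Cd80 and Cd86), and in shSC 4, 5 reached their lowest (Pdcd1lg2, Vsir, Nectin2, Cd86 and Cd40). The library with the highest value was shChi3l1 2 for 18.3% of all tested genes, and the library with the lowest was shSC 4 for 16%. Range over the 7 libraries was 6.03-fold for Havcr2, 6.02-fold for Pvr and 5.39-fold for Pdcd1lg2, and 1.68- to 3.37-fold for Cd86, Cd274, Cd80, Nectin2, Cd40 and Vsir.

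**Figure D5:**
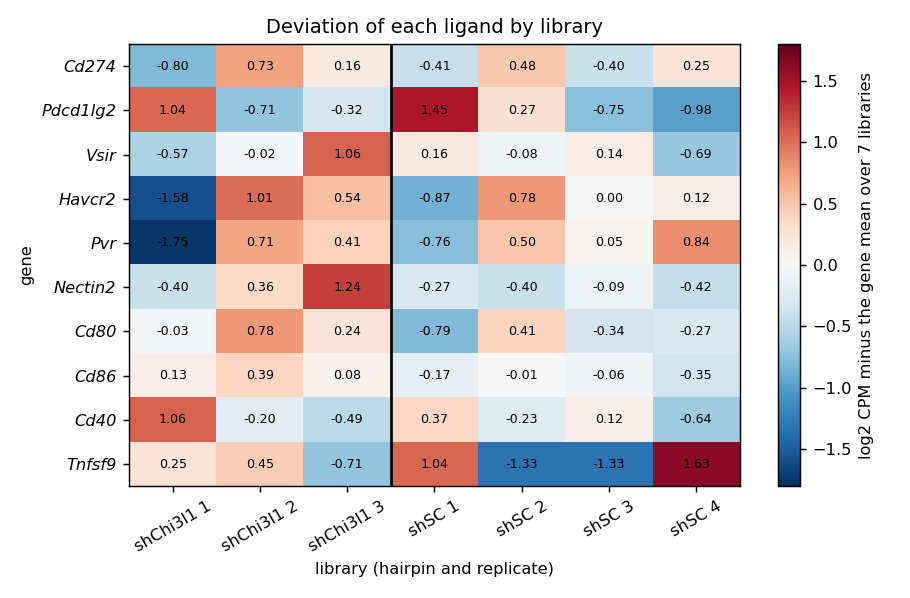
Log2 CPM of each gene minus its mean over the 7 libraries, by library, with shChi3l1 libraries left of the line and shSC libraries right of it. The replicate 1 columns of both hairpins share low Pvr and Havcr2 and high Pdcd1lg2, and Cd86 stays between -0.35 and 0.39.

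The genes closest in pattern to the 3 members of highest mean CPM were found by the root-mean-square difference of centred log2 CPM over the 7 libraries, among 8441 tested genes. For Cd40 they were Eed and Isg15, which differed from it by 0.065 and 0.067 log2 units, where the median gene differed by 0.71. Pttg1ip differed from Cd86 by 0.082, against a median of 0.54. For Cd274 they were Ankrd13c and Vps37c, both at 0.11, against 0.63. These genes were among the closest found by a search over all candidates, and are named as a description.

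Other ligands and myeloid partners of T-cell receptors were also measured. Of 23 listed genes 19 were tested, and none passed. Of these 14 had a fold change above 0 and 5 below, with a median of 0.22, beside 57.6% above 0 among all tested genes. When any 1 library was left out, 10 to 13 were above 0. Vtcn1, an inhibitory B7-family gene, had 0 reads in every library, and Nectin3, Fgl1 and Btn2a2 stayed under 1 CPM. The most abundant was H2-T23, which encodes the class Ib molecule Qa-1, at 1294 ± 145.5 CPM (SD, n = 3) against 1108 ± 506.2 CPM (SD, n = 4). Nectin4 had the smallest unadjusted p, with 5.41, 17.65 and 17.6 CPM in shChi3l1 and 5.21, 9.43, 3.24 and 4.26 CPM in shSC libraries. Its log2 fold change was 1.29 (SE 0.53, edgeR unadjusted p = 0.0371). As with Nectin2, shChi3l1 2 and shChi3l1 3 were above every shSC library and shChi3l1 1 was not, and the part of the microglia markers was not tested here either. Sirpa, the gene of the CD47 receptor, was at 0.93 (SE 0.53), and Tnfsf4, the OX40 ligand gene, at -1.03 (SE 0.70).

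Receptors that these ligands meet were also present in the sort. The summed level of 16 T-cell side receptor genes was 435, 148 and 327.5 CPM in shChi3l1 replicates 1 to 3, against 118, 318.5, 391 and 69.4 CPM in shSC replicates 1 to 4. The groups overlapped, and the log2 sums differed by 0.63 (exact two-sided permutation p = 0.343, adjusted p = 0.609). Without shChi3l1 3 and shSC 4 the difference was 0.05. The sum of T- and NK-cell markers was lowest in shChi3l1 2 and shSC 4, at 159 and 158 CPM, and 582 CPM or more elsewhere. In shSC 1, where the receptor sum was 118 CPM, this marker sum was 1001 CPM. Gzma alone averaged 377 CPM in shChi3l1 and 396 CPM in shSC libraries, of marker sums averaging 734 and 806 CPM. The part of these markers in the receptor sums was not tested. Tnfrsf9, the gene of CD137 and so the receptor for the product of Tnfsf9, was the most abundant, at 68.4 ± 59.2 CPM (SD, n = 3) against 50.6 ± 30.2 CPM (SD, n = 4). Of the 16 genes 12 had a fold change above 0, beside 57.6% of all tested genes, and none passed. The count was 7 to 15 when any 1 library was left out, with 7 without shChi3l1 1 and 8 without shSC 4. Lag3, an inhibitory receptor that binds class II, had 4.09, 38.45 and 42.65 CPM in shChi3l1 and 1.99, 13.3, 13.8 and 3.74 CPM in shSC libraries, and its log2 fold change was 1.79 (SE 0.85). In shChi3l1 2 it was at 38.45 CPM with the T- and NK-cell markers at 159 CPM. Cd160 was at -2.63 (SE 1.19) and Cd40lg, the CD40 ligand gene, at 1.30 (SE 1.07).

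Genes of the routes that induce these ligands were measured as well. Among all tested genes 57.6% had a fold change above 0. On the interferon-gamma route 12 of 14 genes had a fold change above 0, with a median of 0.21, and none passed. Without shChi3l1 2 it was 7 of 14 with a median of 0.03, and 10 or 11 when any other 1 library was left out. Irf8, a myeloid transcription factor gene, led in level at 881 ± 205.0 CPM (SD, n = 3) against 771 ± 302.9 CPM (SD, n = 4). Ifng itself was at -1.15 (SE 0.79) and Jak2, a kinase of the receptor, at -0.42 (SE 0.50). Exons of another gene overlap 26.0% of the exon bases of Ifng. On the NF-kB and CD40 route 14 of 16 genes were above 0, with a median of 0.28, and none passed. Without shChi3l1 2 it was 7 of 16 with a median of -0.02, and 12 to 14 when any other 1 library was left out. Il1b was the most abundant there, at 4738 ± 2166 CPM (SD, n = 3) against 4248 ± 1256 CPM (SD, n = 4). The smallest unadjusted p values were those of Traf6 at 0.62 (SE 0.43), Tnfaip3 at 0.57 (SE 0.46) and Nfkbie at 0.41 (SE 0.40).

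Among regulators of the proteins, Cmtm6, which protects PD-L1 from degradation, separated the groups in CPM. It had 253.5, 279 and 333.5 CPM in shChi3l1 replicates 1 to 3, against 222, 172, 162 and 127 CPM in shSC replicates 1 to 4. Every shChi3l1 library lay above every shSC library in CPM, as in 1.24% of all tested genes. In TPM the groups overlapped. Replicates 1 to 3 of shChi3l1 were at 102.8, 173.3 and 211.4 TPM, and shSC replicates 1 to 4 at 111.6, 121.1, 101.5 and 94.75 TPM. Means of 289 ± 40.9 CPM (SD, n = 3) and 171 ± 39.0 CPM (SD, n = 4) lay 0.76 apart on the log2 scale (SE 0.32), and this did not pass (edgeR unadjusted p = 0.0429, adjusted p = 0.9998). Of the 9 regulators 6 had a fold change above 0, with a median of 0.21, beside 57.6% of all tested genes. Without shChi3l1 2 it was 3 of 9 with a median of -0.06, and 6 or 7 when any other 1 library was left out. Zdhhc9, a palmitoyltransferase gene, was at 0.67 (SE 0.43) and Adam10, the gene of a surface protease, at 0.48 (SE 0.46).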

How the data were processed

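Trim Galore, HISAT2, featureCounts and mm10 are named in the submitters' processing notes, without versions, settings or annotation. The deposited values are whole-number read counts per gene, 1 file per library, which the authors did not normalize. Per the labels' protocols, a SMART-Seq low-input kit turned 10 ng of RNA into cDNA, of which 1 ng went into a Nextera XT library, so amplification noise adds to counting error and PCR copies are not independent molecules. Of 55385 gene IDs, 55144 matched GENCODE M21 symbols ignoring version.

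Groups and replicate numbers came from the sample titles. Genes were kept by filterByExpr at a minimum count of 10. TMM factors scaled the libraries, and edgeR 4.0.16 tested the counts (quasi-likelihood, robust) in R 4.3.3 on all 7 libraries, with Benjamini-Hochberg adjustment over 15448 genes. Standard errors were derived from the F statistic. Before logarithms 0.5 reads were added, and TPM used the exonic lengths in the files. Ratios and sums were compared with exact permutation tests (SciPy 1.17.1). The fit was tested on simulated counts, and the share of changed genes it called is not reported here. Its common dispersion corresponds to a coefficient of variation of 58.3% between libraries, so real changes may have gone uncalled.

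The 10 members, the other lists and the alternatives were chosen with earlier results of these data known. The text names all members and, of every other list, the most abundant gene and the 3 of smallest unadjusted p (for cell markers, the most abundant and the 1 of smallest p, of which only those that bear on a result are printed). Some items that the rule names are not reported here. Genes singled out beyond that rule were chosen after their values were seen.

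The labels call replicates 1 to 3 of both hairpins pairs in a figure of the study. Their deviations from the group means correlated across genes at 0.307, 0.26 and 0.188, above the limit of 0.1, but shChi3l1 3 with shSC 2 (0.322) and shChi3l1 2 with shSC 4 (0.208) did too. The pairing entered as an alternative, as did DESeq2 1.42.0, limma 3.58.1's voom with sample weights, other scaling and filtering, a loess offset for gene length, and leaving libraries out.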

Additional observations from a re-analysis of the deposited data

How the results depend on the processing

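No member passed under any of the 15 alternatives, where the smallest adjusted p of a member was 0.7496. The DESeq2 Wald test called 1 gene in all (350 at an unadjusted p under 0.05), and the other alternatives called 0. The median log2 fold change of all tested genes was 0.07, and -0.09 without the low-count filter. The number of members above 0 was 6 to 9, the 9 without shSC 4. Nectin2, Cd80 and Cd86 kept their sign throughout, at 0.28 to 1.13, 0.29 to 0.82 and 0.24 to 0.41.

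The other 7 turned sign under some setting, and the cause was not tested. With voom Pvr was at 0.055, Cd40 at -0.10 and Tnfsf9 at 0.32. With the replicate block Tnfsf9 was at 0.54, and with the length offset and the block Vsir was at -0.014 and Tnfsf9 at 0.64. Without shChi3l1 3 and shSC 4 together Vsir was at -0.35 and Tnfsf9 at 0.43. Leaving out 1 library at a time gave -0.28 to 0.41 for Cd274, -0.90 to 0.56 for Pdcd1lg2, -0.19 to 0.67 for Vsir, -0.29 to 0.65 for Havcr2, -0.57 to 0.27 for Pvr, -0.33 to 0.60 for Cd40 and -0.90 to 0.15 for Tnfsf9. The Pdcd1lg2 to Cd274 difference ranged from -0.98 to 0.66 in the same way, while Cd86 to Cd80 stayed at -0.40 to -0.05, Nectin2 to Pvr at 0.69 to 1.55 and the receptor sum at 0.17 to 1.08. The replicate block changed no call, with ratio differences of -0.46, -0.29 and 0.80 and a receptor sum of 0.17. With 3 pairs the smallest exact p is 0.25. The members had at least 214 reads in every library. In settings chosen after seeing the data, leaving out 1 library at a time put the difference in the Tnfsf9 share at -13.4 to 2.25 percentage points and that in the summed TPM at -310.4 to 46.7, and leaving out shChi3l1 3 and shSC 4 together put them at 6.10 and 52.5, with the Cd86 share difference at -0.17.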
